A study of Schizosaccharomyces pombe with 40 samples.

Results

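The mug and meu genes of the fission yeast Schizosaccharomyces pombe carry names given for meiotically upregulated and meiotic expression upregulated transcripts. Members were taken by name alone, as every gene whose name in the deposited expression table starts with mug or meu followed by a number, so no measured value enters the rule. The rule found 154 of the 7013 genes in the table, 123 mug and 31 meu. Of these, 123 code for protein, 26 are antisense RNAs named after a mug or meu gene, and 5 are noncoding RNAs with a meu name of their own. A filter of at least 1 scaled CPM (the deposited normalized value, close to CPM) in at least 2 libraries kept 142 of them and 6160 genes in all.

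Mug and meu genes were named in surveys of transcripts that accumulate when diploid cells leave growth, pass through meiosis and form spores. In growing cells many meiotic transcripts are kept low at the promoter, and some are also removed after transcription: the protein Mmi1 binds elimination signals in the RNA and brings it to the nuclear exosome. The samples ask what happens to transcription when parts of an elongation complex are missing: Ell1 is the fission yeast ELL, a factor that stimulates elongation by RNA polymerase II, Eaf1 is its partner, and Ebp1 is an ELL-binding protein.

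All cells were grown in rich YES medium at 32 °C to mid log phase, a condition of vegetative growth. The levels below are therefore read as those of vegetative haploid cultures, and whether every culture was in that state was not tested. The 17 polyA RNA libraries form 7 groups, and the 23 chromatin samples of the series were not analysed here. In strain ED666 there were 3 ebp1Δ libraries (h+, delta-ebp1::kanMX6; the code heading these 3 columns is in no label, and they were taken as ebp1Δ by elimination), 3 eaf1Δ libraries (h+, delta-eaf1::kanMX6) and 3 wild-type libraries (h+). A second ED666 set, marked b in the labels and called ED666b here, held 2 ell1Δ libraries (delta-ell1::kanMX6) and 2 wild-type libraries. Strain Pem2 contributed 2 ell1Δ libraries (PEM-2, delta-ell1::natMX6) and 2 wild-type libraries, which are h- with mat1_m-cyhS, smt0 and rpl42::cyhR(sP56Q). Every group of ED666 and ED666b carries ade6-M210, ura4-D18 and leu1-32, and the Pem2 wild type carries the same 3 markers. The labels do not say whether libraries of a group came from separate cultures, so p-values measure the spread between these libraries, which may be technical. In bulk RNA, fewer cells with a transcript and less of it per cell cannot be told apart.

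The ED666b libraries held 38150862 to 43374049 recovered reads and the Pem2 libraries 35337271 to 40796006, while those of ED666 were shallower, with 6486554 to 9193169. The deleted genes still had reads. The gene ebp1 stood at 8.28 to 10.2 scaled CPM in ebp1Δ against 61.2 to 79.6 in wild type, and eaf1 at 19.0 to 22.3 in eaf1Δ against 43.4 to 56.8. The gene ell1 stood at 16.6 and 20.6 scaled CPM in ell1Δ ED666b against 84.6 and 73.5 in its wild type, and at 25.3 and 31.1 in ell1Δ Pem2 against 68.5 and 71.4. The 6 fixed markers of h- (M) cells summed to 276 and 174 scaled CPM in Pem2 wild type against 125 and 144 in ED666b wild type. Of these, the M-factor genes mfm2 (114 and 50.7 against 4.79 and 5.01) and mfm1 were higher in Pem2 without overlap, mam3 and mfm3 were lower without overlap, and mam1 and mam2 overlapped. The 3 markers of h+ (P) cells summed to 54.3 and 54.9 in Pem2 wild type against 59.0 and 80.6 in ED666b wild type. The third ED666 wild-type library stood apart from the other two among the mug and meu genes, as described below, and the counts of members called by limma in ebp1Δ and eaf1Δ are given with and without it.

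Most mug and meu transcripts were present at low levels in growing cells. Their median was 19.8 scaled CPM against 70.5 over all 6160 tested genes. Per length, the 114 coding members had a median of 12.2 RPKM against 45.9 RPKM over all 4963 tested coding genes. The 25 antisense members went the other way, with a median of 10.6 RPKM against 4.37 RPKM over all 568 tested antisense RNAs. By mean scaled CPM over the 17 libraries, 4 members lay under 1, 29 between 1 and 5, 81 between 5 and 50 and 28 over 50. All members together took 0.439% to 0.569% of the reads of a library.

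Some members were expressed at the level of ordinary growth genes. The 28 members over 50 scaled CPM had a median of 56.7 RPKM, against 45.9 RPKM over all tested coding genes. The highest was mug64 (SPAC56F8.05c), which codes for a BAR domain protein of the kind that binds curved membranes, at a mean of 326 RPKM. Next came mug134 (SPAC10F6.16) at 154 RPKM, which codes for Igo1, the endosulfine that inhibits a PP2A phosphatase under nutrient control. Then followed mug168 at 100.2 RPKM, mug33 at 87.8 RPKM and mug69, a protein of the ENV10 family, at 81.7 RPKM. Of these 5, mug64, mug33 and mug69 differed by at most 0.16 on the log2 scale from wild type in each of the 4 deletion comparisons, and mug168 by at most 0.15. At the other end mug62, annotated as a putative AMP-binding enzyme, had 0.179 RPKM, the lowest value of all 6160 tested genes.

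**Figure D1:**
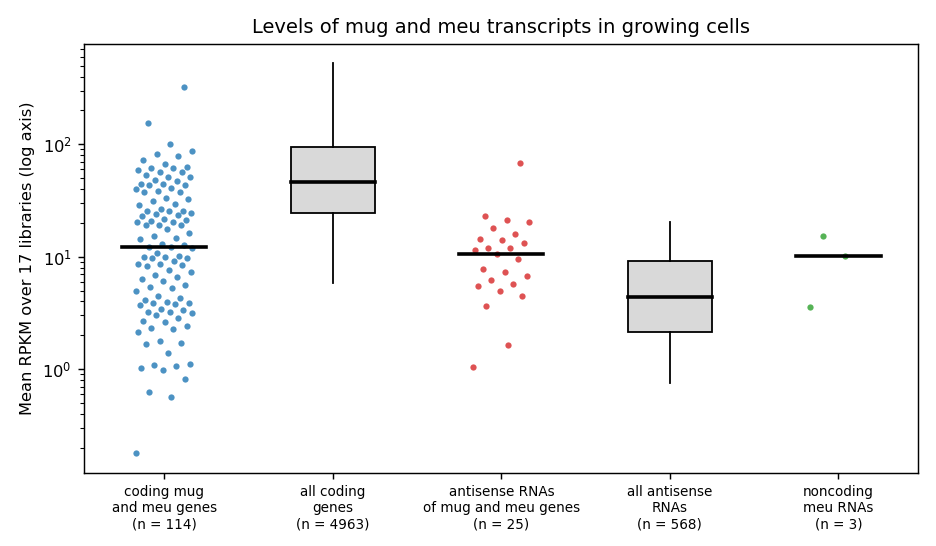
Mean RPKM over the 17 libraries on a log axis. Points are single mug and meu transcripts that passed the filter, bars their medians, and grey boxes the quartiles of all tested coding genes and all tested antisense RNAs with whiskers at the 5th and 95th percentiles; the coding members sit low (median 12.2 RPKM against 45.9) and the antisense members sit high (10.6 against 4.37).

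The 12 members under the filter had mean levels below 1 scaled CPM. The coding genes mug27, mug55, mug131, meu26, mug93, mug128, mug112, mug96 and mug116 and the RNA mug27-antisense-1 had mean levels of 0.534 scaled CPM or less. Among them mug27 codes for the meiotic kinase Slk1 and mug55 for the meiotic APC coactivator Fzr3. The gene mug116 had no read in 16 of 17 libraries, and the noncoding RNAs meu11 and meu20 had none in any of the 17. With 3 reads as the floor, 0 reads allow up to 0.0704 to 0.456 scaled CPM, depending on the library, by counting error only.

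The chromosome, spore and RNA-binding members named next, from sets fixed by known role, were detected in every library, at low levels. The chromosome proteins were represented by meu13, the Hop2-type factor of homologous pairing, at a mean of 2.78 scaled CPM, and by mug20, a component of the linear elements on which recombination takes place, at 3.34. Of the genes for spores, meu10, a GPI-anchored protein needed for the spore wall, averaged 7.82 scaled CPM. The gene meu14, whose protein sits at the leading edge of the forespore membrane, averaged 2.92, and meu17, a glucan-alpha-1,4-glucosidase, averaged 1.82. The RNA-binding protein gene mug28 averaged 1.13. In a separate fixed set of transporters and enzymes, mug86 (acetate transporter) averaged 33.5 scaled CPM, mug182 (NADHX epimerase) 17.1 and meu22 (amino-acid permease) 8.76. By RefSeq product text, 69 of the 123 coding members are named only as a mug or meu protein, and the 63 of them that passed the filter had a median of 8.63 RPKM. The 13 members with membrane, vesicle or transport words in their product text had a median of 24.0 RPKM.

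The antisense RNAs were often more abundant per length than the genes they are named for. The deposited table holds the host gene for 25 of the 26, and the antisense RNA had the higher mean RPKM in 15 of those 25 pairs. It was higher in 17 of 17 libraries in 13 pairs and lower in 17 of 17 in 5 pairs. In 5 pairs, those of mug95, mug93, meu17, mug68 and meu26, the antisense mean was at least 10-fold that of the host. The hosts mug93 and meu26 did not pass the filter (means of 0.315 and 0.425 RPKM), and in the mug27 pair neither partner passed. For mug95 the antisense RNA had 17.97 RPKM against 1.02 for the gene, and for meu17 it had 14.2 against 1.07. The most abundant was mug2-antisense-1, with 68.7 RPKM against 7.29 for mug2. Whether the counting used strand is not stated in the labels. It is therefore not known whether sense and antisense reads were kept apart where the partners overlap, and the levels of both are uncertain.

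Loss of ebp1 changed 4 of the 142 members (limma, Benjamini-Hochberg adjusted p under 0.05 over 6160 genes), which is 2.82% of members against 3.67% of all tested genes. The gene mug146 rose (background for rises 0.925%), and mug134, mug86 and mug124 fell (background for falls 2.74%). Over all 142 members the median difference, ebp1Δ minus wild type, was 0.00 on the log2(scaled CPM + 1) scale, against 0.01 over all tested genes. This scale is used for all differences below, and it understates the change of low genes.

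The gene mug134, which codes for the phosphatase inhibitor Igo1, had 111, 117 and 115 scaled CPM in ebp1Δ libraries against 191, 165 and 169 in wild-type libraries. No ebp1Δ library reached the lowest wild-type library. The difference was -0.60 ± 0.08 (SE), with a limma adjusted p of 8.0e-04. In eaf1Δ the same gene had 169, 166 and 165 scaled CPM, which overlaps the wild-type values.

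The acetate transporter gene mug86 (SPAC5D6.09c) had 21.8, 16.5 and 18.7 scaled CPM in ebp1Δ against 35.7, 27.96 and 32.8 in wild type, again without overlap. It differed by -0.73 ± 0.13 (SE; limma adjusted p = 0.0063). The eaf1Δ values were 29.6, 24.0 and 22.6, and that difference of -0.33 ± 0.13 did not pass the test (limma adjusted p = 0.28).

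The gene mug124 (SPBC19C2.06c), with no function in its product text, had 14.9, 14.7 and 15.7 scaled CPM in ebp1Δ against 20.2, 20.2 and 26.3 in wild type. Its difference was -0.52 ± 0.10 (SE; limma adjusted p = 0.0085). The RNA mug124-antisense-1 was lower too, at 2.83, 3.78 and 3.71 scaled CPM in ebp1Δ against 4.56, 4.46 and 3.81 in wild type, a difference of -0.25 that did not pass the test (limma adjusted p = 0.28).

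The gene mug146 (SPCC1235.12c), also without a described function, had 7.01, 8.09 and 9.86 scaled CPM in ebp1Δ against 4.10, 2.53 and 5.22 in wild type. The groups did not overlap, and the difference was 0.94 ± 0.20 (SE; limma adjusted p = 0.018). Its call was lost without the second or the third ebp1Δ library (limma adjusted p = 0.060 and 0.084).

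**Figure D2:**
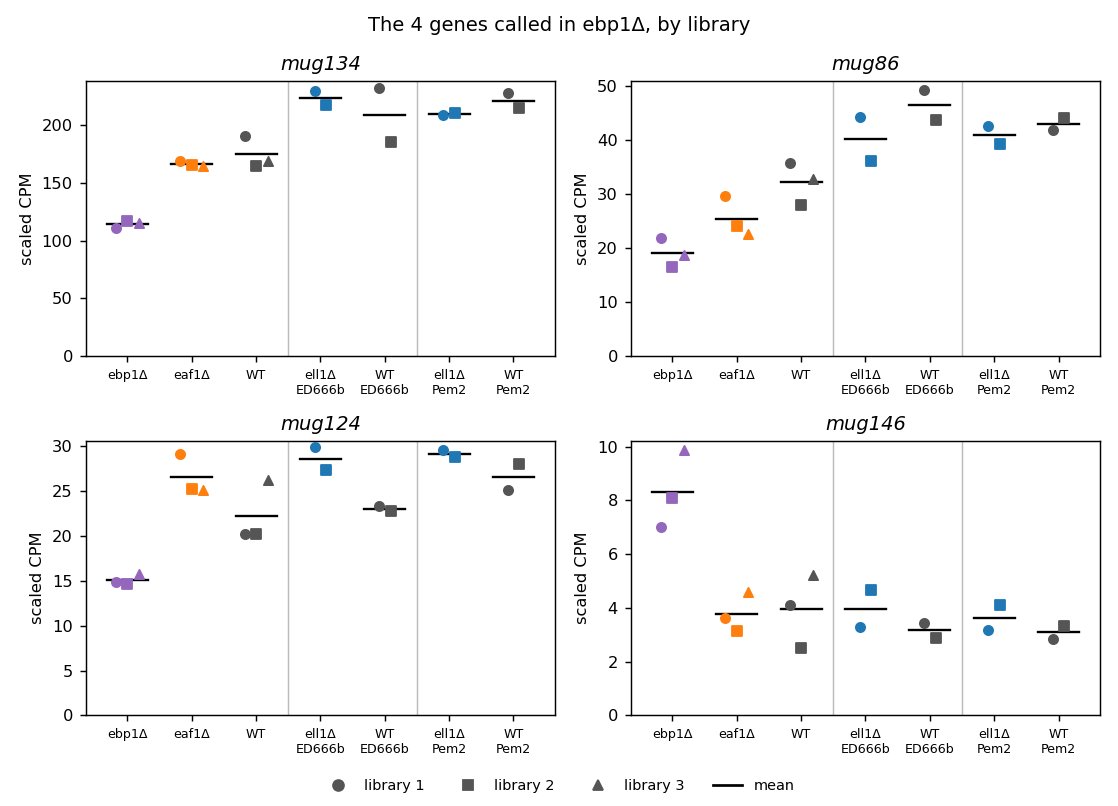
Scaled CPM of the 4 genes called in ebp1Δ, by group and library (point shapes give the library number, black bars the group mean; the vertical axes start at 0). For mug134 the 3 ebp1Δ libraries lie between 111 and 117, under every eaf1Δ and wild-type library of ED666. For mug146 they lie between 7.01 and 9.86, above every eaf1Δ and wild-type library of ED666.

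The count of called members in ebp1Δ depended on the libraries used. A fit to only the 6 compared libraries called 1 member, mug134 (all genes 1.06%), while edgeR's quasi-likelihood test on recovered reads called 4 (all genes 2.91%) and DESeq2 called 8 (all genes 5.39%). Leaving out the second wild-type library gave 7 called members (4.93% against 4.12% of all tested genes), and leaving out the third gave 13, or 9.155% of members against 5.97% of all tested genes. The authors' deposited table calls 4 members at its adjusted p under 0.05 (3.24% of its tested genes): mug134, mug86, mug146 and mug9.

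The third ED666 wild-type library was high for many members. Relative to the mean of the other 2 wild-type libraries, the median member was higher by 0.28 on the log2 scale, against 0.01 for all tested genes. In that library 10 members were higher by at least 1 on the log2 scale and none was lower by as much, which is 7.04% of members. Of all 6160 tested genes 159 were higher and 45 lower by as much, 3.31% in both directions together. Its members summed to 5208 scaled CPM, against 4590 to 4736 in ebp1Δ and 4731 and 4591 in the other wild-type libraries. The members that differed most there, chosen after their values were seen, were mug14, mug108, meu19, mug37, meu3 and mug147.

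For mug14 (SPBC359.06), an adducin of the actin cytoskeleton, the ebp1Δ libraries had 81.6, 73.5 and 78.4 scaled CPM and the eaf1Δ libraries 16.6, 16.4 and 16.2, against 13.97, 11.7 and 206 in the 3 wild-type libraries. The ebp1Δ values were close together and lay between the wild-type values. With all libraries the ebp1Δ difference of 1.21 ± 0.77 (SE) did not pass the test (limma adjusted p = 0.47), and without the third wild-type library it was 2.51 (limma adjusted p = 2.4e-04). In the fit to only the 6 eaf1Δ and ebp1Δ libraries, which uses no wild type, mug14 was lower in eaf1Δ by 2.18 on the log2 scale (limma adjusted p = 6.9e-05). The fit over all 17 libraries did not call that difference (limma adjusted p = 0.18), nor did any other alternative that gave it an adjusted p (0.16 to 0.35). All of these fits kept the third wild-type library in the shared estimate of spread. The SE was 0.77 over all 17 libraries and 0.058 in the fit to the 6, so the fits that kept that library cannot decide the difference.

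The noncoding RNA meu19 was also highest in the third wild-type library, with the ebp1Δ libraries next, but its eaf1Δ libraries overlapped the other wild-type libraries. It had 20.5, 19.7 and 21.6 scaled CPM in ebp1Δ and 6.97, 10.5 and 9.44 in eaf1Δ, against 8.35, 8.62 and 31.6 in wild type. Without the third wild-type library its ebp1Δ difference was 1.19 (limma adjusted p = 0.041), and with it 0.59 (limma adjusted p = 0.53). Without that library mug125, meu6, mug1, mug135, meu3 and mug1-antisense-1 were also called higher in ebp1Δ and mug74-antisense-1 lower. Of these 7, mug1 was called under quantile normalization of all libraries too, and the others under no other alternative run. Whether the third wild-type library or the other two better represent wild type was not tested.

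Loss of eaf1 called no member (limma, adjusted p under 0.05), where 0.844% of all tested genes were called. edgeR called none of the members (all genes 0.438%), DESeq2 called 3 (meu18, mug9 and mug108; all genes 1.98%), and 29 members had an unadjusted limma p under 0.05 (20.4% against 13.1% of all tested genes). Without the third wild-type library 27 members had an unadjusted p under 0.05 (19.0% against 12.4%). The members' median difference was 0.00 on the log2 scale, against -0.01 for all tested genes.

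The member with the smallest p was meu18, whose function is not described in its product text. It had 38.9, 39.2 and 44.2 scaled CPM in eaf1Δ against 31.3, 32.1 and 33.5 in wild type, without overlap. The difference was 0.33 ± 0.07 (SE; limma adjusted p = 0.055). It passed the threshold under quantile normalization (adjusted p = 0.028), under TMM scaling (0.042) and with DESeq2 (0.020).

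The next members, also without a described function, were low-level genes. For mug155 the eaf1Δ libraries had 4.18, 4.13 and 4.496 scaled CPM against 1.97, 2.83 and 3.11 in wild type (difference 0.55 ± 0.13 SE, limma adjusted p = 0.075). For mug153 they had 2.93, 2.57 and 1.35 against 0.759, 0.297 and 1.55, which overlap (difference 0.83 ± 0.22 SE, limma adjusted p = 0.11). Leaving out the third wild-type library called 4 members, mug155, mug153, mug97 and mug124 (all genes 1.14%), and leaving out the first eaf1Δ library called mug9 alone (all genes 0.958%). The authors' deposited table calls 2 members in eaf1Δ (1.28% of its tested genes): mug9, with a deposited log2 fold change of 1.64, and mug108, with -2.48. For mug108 the eaf1Δ libraries had 1.39, 0.335 and 1.01 scaled CPM against 3.19, 1.19 and 10.9 in wild type, where the third library was the high one and the groups overlap.

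**Figure D3:**
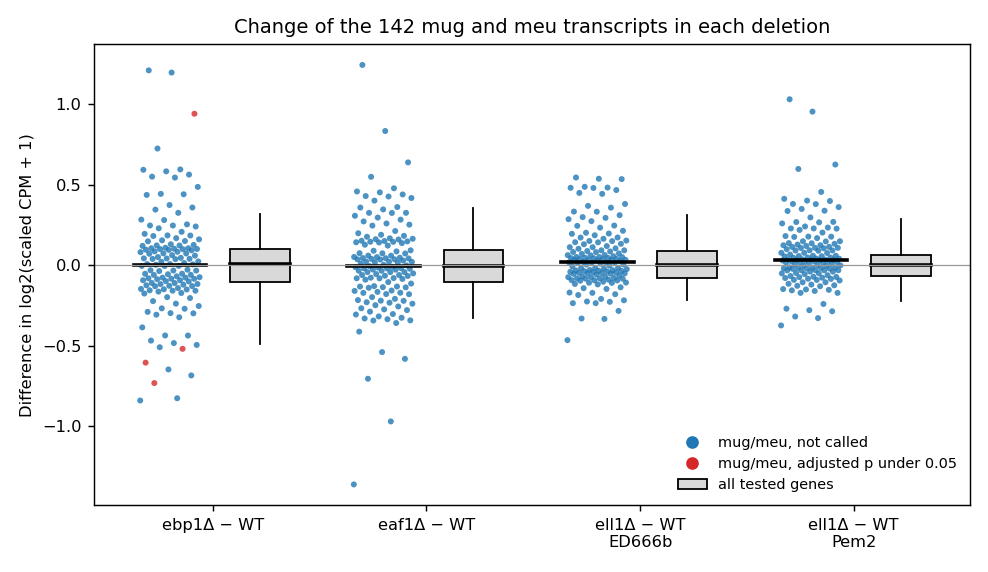
Difference in log2(scaled CPM + 1) for the 142 mug and meu transcripts (points, with called members in red and a bar at the median) beside the quartiles of all 6160 tested genes (grey boxes, whiskers at the 5th and 95th percentiles), for each deletion minus its own wild type. The member medians lie between 0.00 and 0.03, and only ebp1Δ has called members, 4 of 142.

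The Mmi1 targets mug8 and mug9 varied between libraries of the same strain. For mug8 (SPAC32A11.01) the ebp1Δ libraries had 40.5, 91.6 and 67.7 scaled CPM and the eaf1Δ libraries 33.5, 68.9 and 90.6, against 33.0, 37.0 and 44.3 in wild type. For mug9 (SPCC70.09c) they were 3.81, 10.7 and 7.28 in ebp1Δ and 3.49, 7.92 and 11.8 in eaf1Δ, against 1.37, 3.12 and 2.97 in wild type.

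In both genes the second and the third libraries of ebp1Δ and of eaf1Δ were above all other ED666 libraries, and the first library of each deletion was near or within the wild-type range. The gene mug45, chosen after its values were seen, had the same order: 11.8, 19.3 and 17.1 scaled CPM in ebp1Δ and 10.04, 17.9 and 16.7 in eaf1Δ, against 8.96, 9.81 and 11.7 in wild type. With this spread none passed the limma test. The difference for mug9 was 1.195 ± 0.37 (SE; limma adjusted p = 0.105) in ebp1Δ and 1.24 ± 0.37 (limma adjusted p = 0.15) in eaf1Δ. For mug8 it was 0.72 ± 0.33 (adjusted p = 0.28) and 0.64 ± 0.33 (adjusted p = 0.43). The 2 comparisons share their wild-type libraries. In the ell1Δ groups mug8 had 39.0 and 32.2 scaled CPM against 34.9 and 41.7 in ED666b wild type, and 41.0 and 32.3 against 45.2 and 37.4 in Pem2 wild type, overlapping in both strains.

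**Figure D4:**
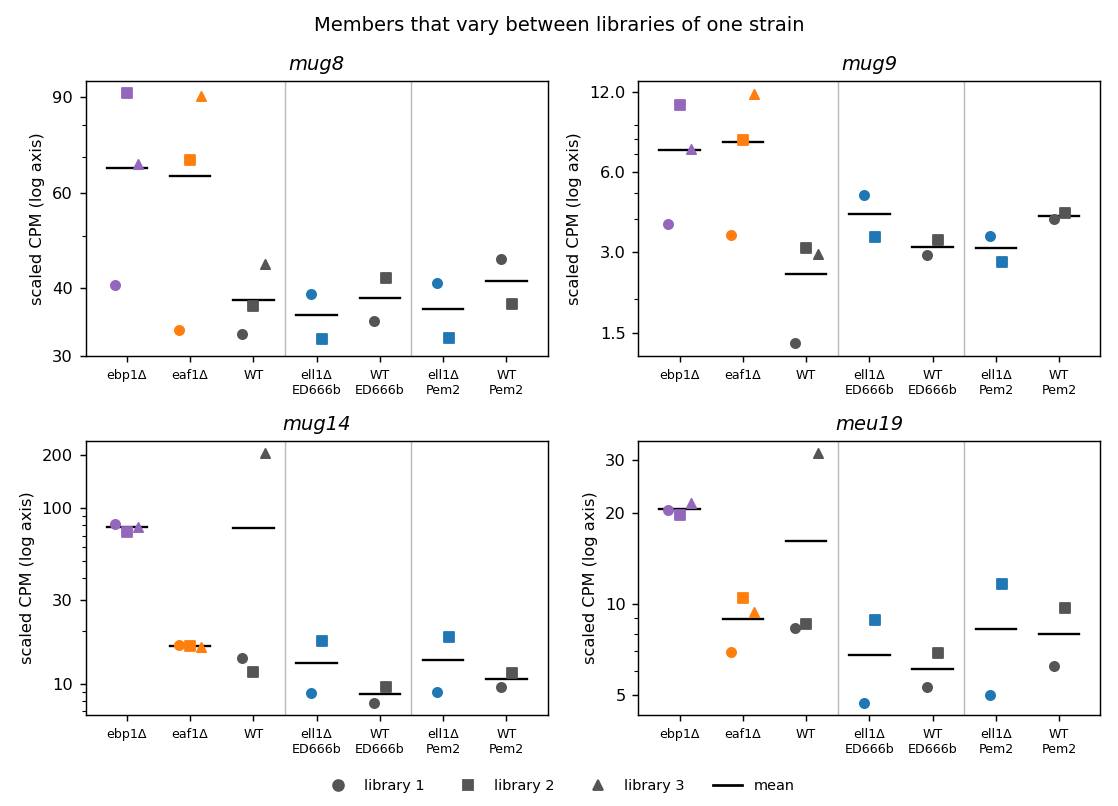
Scaled CPM on a log axis for mug8, mug9, mug14 and meu19 by group, with the library number as point shape and the group mean as a black bar. The second and the third libraries of ebp1Δ and eaf1Δ stand high for mug8 (67.7 to 91.6) and mug9 (7.28 to 11.8), and the third wild-type library stands high for mug14 (206) and meu19 (31.6).

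In the fit over all 17 libraries eaf1Δ and ebp1Δ were also set against each other, with their shared wild type entering only the spread. Here 5 members were called (limma, adjusted p under 0.05), which is 3.52% of members against 2.97% of all tested genes. Higher in eaf1Δ were mug124, mug124-antisense-1, mug134 and mug74-antisense-1 (background for rises 2.35%), and lower was mug146 (background for falls 0.617%). The gene mug124 had 29.2, 25.2 and 25.2 scaled CPM in eaf1Δ against 14.9, 14.7 and 15.7 in ebp1Δ, a difference of 0.77 ± 0.10 (SE; limma adjusted p = 8.5e-04). Its antisense RNA had 5.998, 6.14 and 5.96 against 2.83, 3.78 and 3.71, a difference of 0.67 ± 0.12 (limma adjusted p = 0.0071). Both partners of this locus were thus higher in eaf1Δ than in ebp1Δ.

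The gene mug134 differed by 0.54 ± 0.08 (SE; limma adjusted p = 0.0025) between eaf1Δ and ebp1Δ. For mug74-antisense-1 the values were 22.6, 17.6 and 19.0 scaled CPM in eaf1Δ against 14.02, 13.1 and 15.1 in ebp1Δ (difference 0.45, limma adjusted p = 0.026). For mug146 they were 3.63, 3.13 and 4.61 in eaf1Δ against 7.01, 8.09 and 9.86 in ebp1Δ (difference -0.96, limma adjusted p = 0.017). Without the second ebp1Δ library (all genes 1.85%) or without the first eaf1Δ library (all genes 1.7%) 3 members were called, and the calls lost were mug146 and mug74-antisense-1. The mug146 call was also lost without the third ebp1Δ library (limma adjusted p = 0.087) and without the second eaf1Δ library. The mug74-antisense-1 call was further lost under quantile normalization, with only the 6 compared libraries, without the first ebp1Δ library and without the third eaf1Δ library, and it held in 8 of 14 alternatives. The fit to only these 6 libraries called 9 members (6.34% against 5.24% of all tested genes), edgeR called the same 5 (all genes 2.53%) and DESeq2 those 5 with mug115 and mug180 (all genes 4.68%).

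Loss of ell1 called no member in either strain by limma, with 0.519% of all tested genes called in ED666b and 0.244% in Pem2. At an unadjusted p under 0.05, 11 members differed in ED666b (7.75% against 5.76% of all tested genes) and 5 in Pem2 (3.52% against 4.24%). edgeR called none of the members in ED666b (all genes 0.779%) and 1 in Pem2 (all genes 0.649%), and DESeq2 called 1 (all genes 1.43%) and 2 (all genes 1.27%). The median difference of the members was 0.02 in ED666b and 0.03 in Pem2, against 0.00 for all tested genes in both strains.

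The members nearest to a call in Pem2 were antisense RNAs. The RNA mug135-antisense-1 had 13.2 and 14.1 scaled CPM in ell1Δ Pem2 against 6.40 and 6.77 in wild type, a difference of 0.95 ± 0.18 (SE; limma adjusted p = 0.052). edgeR called it (adjusted p = 0.037), DESeq2 called it (adjusted p = 7.1e-04), and the authors' deposited table calls it with a log2 fold change of 1.05 and an adjusted p of 0.0034. In ED666b it had 9.06 and 7.07 in ell1Δ against 7.004 and 4.45 in wild type, again without overlap (difference 0.45 ± 0.18, limma adjusted p = 0.76). Its partner mug135 had 24.0 and 28.4 scaled CPM in ell1Δ Pem2 against 22.02 and 23.9 in wild type.

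The RNA mug182-antisense-1 had 13.1 and 11.6 scaled CPM in ell1Δ ED666b against 7.45 and 9.03 in wild type, and 12.4 and 12.9 in ell1Δ Pem2 against 7.38 and 8.34 in wild type. The groups did not overlap in either strain. The differences were 0.53 ± 0.17 (limma adjusted p = 0.42) and 0.62 ± 0.17 (limma adjusted p = 0.27). The sense gene mug182 differed by 0.05 and -0.00 in the same comparisons.

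For mug124-antisense-1 the ell1Δ libraries had 9.06 and 6.86 scaled CPM in ED666b against 5.61 and 4.69 in wild type, and 8.02 and 6.42 in Pem2 against 5.07 and 5.35. The differences were 0.54 ± 0.14 (limma adjusted p = 0.20) and 0.40 ± 0.14 (limma adjusted p = 0.71). These 3 antisense RNAs were the members with an unadjusted p under 0.05 and the same sign in both strains, 2.11% of members against 2.09% of all tested genes.

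Across the 142 members the ell1Δ difference had the same sign in both strains for 82, or 57.7%, against 56.2% of all tested genes. Among the 25 antisense members 21 had the same sign (84%), 11 higher and 10 lower in both, against 71.7% of all 568 tested antisense RNAs. Across those 25 RNAs the differences in the 2 strains had a Pearson r of 0.81 and a Spearman rho of 0.81, against 0.84 and 0.67 across all 568 tested antisense RNAs. Across the 114 coding members they were 0.46 and 0.31, against 0.48 and 0.23 across all 4963 tested coding genes. These correlations are over transcripts, which share the same 8 libraries and are not independent replicates, and the 2 strains share no library. The median difference of the antisense members was -0.02 in ED666b and 0.02 in Pem2, against 0.11 and 0.06 over all tested antisense RNAs.

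**Figure D5:**
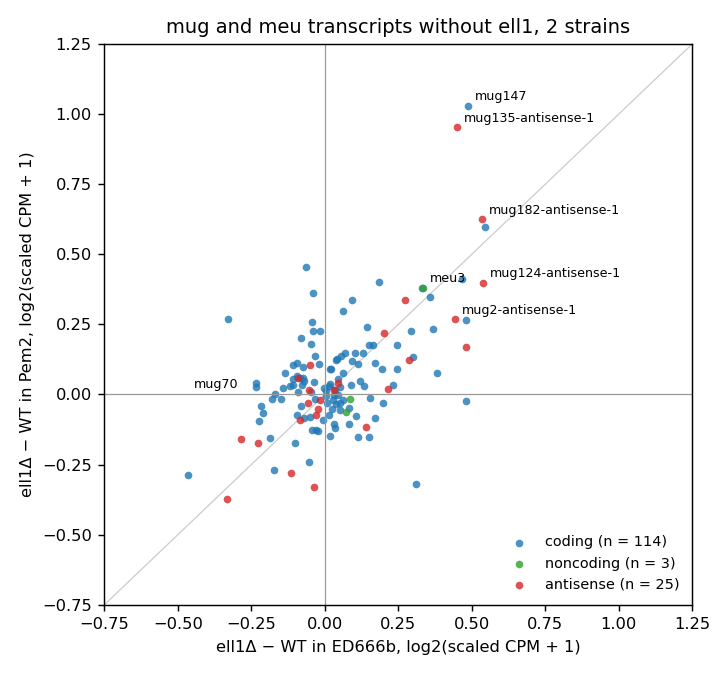
Difference in log2(scaled CPM + 1), ell1Δ minus wild type, in ED666b (horizontal) and Pem2 (vertical) for the 142 members, with antisense RNAs in red, noncoding RNAs in green and coding genes in blue; the grey diagonal marks equal differences. The RNAs mug182-antisense-1, mug124-antisense-1 and mug135-antisense-1 lie above 0.39 in both strains.

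The ell1Δ difference itself did not pass the test of unequal size between strains for any member (limma, background 0.0325%), and 1 member had an unadjusted p under 0.05 (all genes 1.01%). edgeR and DESeq2 called none of the members (all genes 0.0325% and 0.0649%). That member was mug70, with a difference of differences of -0.28 ± 0.09 (SE; limma adjusted p = 1.0). It had 100.4 and 98.8 scaled CPM in ell1Δ ED666b against 117 and 118 in its wild type, and 105 and 97.0 in ell1Δ Pem2 against 98.9 and 97.0 in its wild type. The ED666b wild-type libraries were thus the high ones. Next by p were mug135-antisense-1, with -0.50 ± 0.25 (95% interval -1.05 to 0.04), and mug64, with 0.19 ± 0.11 (95% interval -0.06 to 0.43).

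The authors' deposited table calls 1 member in ell1Δ ED666b (1.58% of its tested genes), mug2-antisense-1, with a log2 fold change of 0.45 and an adjusted p of 0.0056. That RNA had 115 and 97.1 scaled CPM in ell1Δ ED666b against 80.2 and 75.2 in wild type, and 99.5 and 102 in ell1Δ Pem2 against 78.1 and 89.6. The ell1Δ libraries were higher than wild type in both strains, and the limma adjusted p was 0.71 and 1.0. The sense gene mug2 was lower instead, with 11.98 and 11.1 scaled CPM in ell1Δ ED666b against 17.2 and 15.5 in wild type, and 11.9 and 12.3 in ell1Δ Pem2 against 16.4 and 13.7. In Pem2 the authors' deposited table calls 2 members (1.33% of its tested genes), mug135-antisense-1 and mug147. For mug147 the ell1Δ Pem2 libraries had 14.96 and 19.3 scaled CPM against 7.66 and 7.97 in wild type (difference 1.03 ± 0.43 SE, limma adjusted p = 1.0).

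Between the wild types of Pem2 (h-) and ED666b (h+) no member was called by limma (background 0.0812%), and 5 had an unadjusted p under 0.05 (3.52% against 5.83% of all tested genes). edgeR called none of the members (all genes 0.179%) and DESeq2 called 1, mug70 (all genes 1.1%). The gene mug70 had 98.9 and 97.0 scaled CPM in Pem2 wild type against 117 and 118 in ED666b wild type (difference -0.26 ± 0.06 SE, limma adjusted p = 0.28). The pleckstrin homology gene meu6 had 6.26 and 7.73 against 9.64 and 13.7 (limma adjusted p = 0.60), and mug30-antisense-1 had 24.3 and 25.1 against 17.6 and 21.0 (limma adjusted p = 0.83). Strain, mating type and library set cannot be told apart in this comparison.

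Genes with meiotic roles that carry other names were also read, as a list chosen with earlier results of these data known. Its counts are therefore a description and not independent support. Of 36 listed genes 35 were in the table and 30 were tested. In ebp1Δ 4 of the 30 rose (13.3% against 0.925% of all tested genes) and none fell (background 2.74%): rec25, a linear element protein, by 0.79, spo6, the regulatory subunit of a meiotic kinase, by 0.63, mei4, the forkhead factor of mid-meiotic genes, by 0.97, and mes1, an inhibitor of the anaphase-promoting complex in meiosis, by 0.32 on the log2 scale. For mei4 the ebp1Δ libraries had 16.2, 26.03 and 22.3 scaled CPM against 10.02, 8.92 and 12.3 in wild type. Without the third wild-type library 7 of the 30 were called, all higher (23.3% against 2.32% of all tested genes). Listed genes with a negative difference, chosen after their values were seen, included ste11, the transcription factor of mating and meiotic entry. It had 13.3, 17.5 and 14.998 scaled CPM in ebp1Δ against 20.7, 23.05 and 59.9 in wild type (difference -0.97 ± 0.31 SE, limma adjusted p = 0.11). For mei2, the RNA-binding protein that starts meiosis, the values were 15.4, 16.05 and 11.7 in ebp1Δ against 9.42, 6.39 and 189.5 in wild type (difference -0.68 ± 0.89 SE, limma adjusted p = 0.76). The third wild-type library alone was high, and all ebp1Δ libraries lay above the other wild-type libraries. The list's median difference in ebp1Δ was 0.27 on the log2 scale, against 0.00 for the 142 mug and meu members. In eaf1Δ and in both ell1Δ comparisons none of the 30 was called by limma, with 8, 1 and 1 at an unadjusted p under 0.05. These are 26.7%, 3.33% and 3.33% of the list, against 13.1%, 5.76% and 4.24% of all tested genes. Without the third wild-type library eaf1Δ had 1 called gene, atf31, and 10 at an unadjusted p under 0.05 (33.3% against 12.4%). Between eaf1Δ and ebp1Δ, spo6 was called, with 10.2, 10.9 and 10.12 scaled CPM in eaf1Δ against 17.5, 16.2 and 16.9 in ebp1Δ. Listed genes chosen after their values were seen, among them mcp7, rec8 and spo5, had the library order of mug8 and mug9. For mcp7 the values were 19.7, 35.3 and 28.3 in ebp1Δ and 18.7, 29.7 and 38.7 in eaf1Δ. Its wild-type values were 15.2, 18.3 and 15.96. None of the 4 genes called in ebp1Δ had this order in full, but mei4 came near it. Its eaf1Δ libraries had 10.7, 15.6 and 19.3, and the first library was the lowest in each deletion. For rec25 the eaf1Δ libraries had 5.58, 8.26 and 7.64 against 5.16, 4.16 and 5.65 in wild type, with only the first in the wild-type range. How far the split between libraries enters the list's differences was not tested.

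The members were spread over all 3 chromosomes. Chromosome I holds 59 of the 123 coding members (48.0% against 45.6% of all coding genes), chromosome II 34 (27.6% against 36.5%) and chromosome III 30 (24.4% against 17.9%). In the gene order of RefSeq, 5 pairs of coding members are direct neighbours: mug177 and mug58, mug116 and mug86, mug105 and meu29, mug57 and mug97, and mug163 and mug55. Of the pair with a called gene, mug86 fell in ebp1Δ while mug116 had no reads in 16 of 17 libraries.

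The members varied between libraries of a group, as the mug9 and mug14 values show. The median within-group SD on the log2(scaled CPM + 1) scale was 0.17 for the 142 members against 0.12 for all tested genes. The members with the largest SD were mug14 at 1.06, mug108 at 0.68, meu19 at 0.58, meu3 at 0.53 and mug9 at 0.50. Beside this, the median level of the members was 19.8 scaled CPM against 70.5 for all tested genes. Within bands of mean level the median SDs were closer. At 5 to 50 scaled CPM the median SD was 0.171 for members against 0.161 for all tested genes. At 1 to 5 it was 0.265 against 0.256, over 50 it was 0.103 against 0.099, and under 1 it was 0.242 against 0.261. The part of level in the spread was not tested.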

How the data were processed

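PolyA RNA-seq of 17 libraries was read from 1 deposited table (7014 lines; 1 repeated identifier was dropped, leaving 7013 genes). Per the file headers it gives CPM and RPKM per library; the deposited CPM column was treated as a signal, called scaled CPM here, because each library is whole reads times 1 constant (100% of values whole within 0.01) and sums to 915972 to 1045682. RPKM, which the authors also deposited, is that signal per gene length; 3 columns of per-sample values, the RPKM of ebp1Δ, were not used, and ebp1Δ RPKM was computed from scaled CPM and the gene length in the other columns. The authors' log2 fold changes and adjusted p-values for 4 comparisons stand in the deposited table and are quoted as theirs. The submitters' processing notes name TopHat2 2.1.1 with Bowtie2 2.2.9, SAMtools 1.3.1 and edgeR, and build ASM294v2; for counter, annotation and strand, settings are not given. No depth-independent correction was applied, and the 9 ED666 libraries appear scaled separately from the 8 of ED666b and Pem2; no comparison crosses them.

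Columns were matched to samples by name; the ebp1Δ columns carry a code found in no label and were assigned because all other columns matched other samples, and their library numbers come from the column names. The second ED666 set was read from the suffix b. The signal was tested like a normalized value, one of the cases the design allowed.

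The 6160 genes reaching 1 scaled CPM in 2 or more libraries were tested with limma 3.58.1 in R 4.3.3 on log2(scaled CPM + 1), in a fit of 7 group means over 17 libraries, with trend and robust off; it had 10 residual and 2.61 prior degrees of freedom. Genes were called at a Benjamini-Hochberg adjusted p of 0.05 over all tested genes. The script was tested on simulated data. On recovered reads, edgeR 4.0.16 called 179, 27, 48 and 40 genes in ebp1Δ, eaf1Δ, ell1Δ ED666b and ell1Δ Pem2, and DESeq2 1.42.0 was also run. Other alternatives were another pseudocount (0.25), no filter, quantile and TMM scaling, the compared libraries alone, a replicate block and leaving out each library. The floor of 3 reads covers counting error only. No replicate pair agreed within sampling noise.

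Named members are all those called in a comparison (up to 12), or the 3 with the smallest p where fewer than 2 were called, the 5 with the highest mean RPKM, and sets fixed by known role; others are said to be chosen after their values were seen. The values of 1 named member are not reported here. The name rule uses no measured value, but this gene group and the lists were chosen with earlier results of these data known. RefSeq (a later build) gave product text, biotype and gene order for all 154 members, so no coordinates or sequences are printed, and the planned promoter motif search was not run. The planned names meu5, meu8 and mug158 are not in the table under those names, nor is dil1 of the meiotic list.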

Additional observations from a re-analysis of the deposited data

How the results depend on the processing

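Counts of called members moved with some choices. In ebp1Δ against wild type the count was 4; it was 1 with only the compared libraries, 8 with DESeq2, 9 with the replicate block, and 3 to 13 when a library was left out. In eaf1Δ against wild type it was 0; it was 2 under quantile normalization, 1 under TMM over all libraries, 3 with DESeq2, 2 with the replicate block, and 0 to 4 when a library was left out. In ell1Δ ED666b it was 0, and 1 with DESeq2 (mug70). In ell1Δ Pem2 it was 0, and 1 with edgeR, 2 with DESeq2 and 1 with the replicate block. Between eaf1Δ and ebp1Δ it was 5, and 9 with only the compared libraries and 3 to 5 when a library was left out. Between wild types it was 0, and 1 with DESeq2. The causes were not tested. The difference of ell1Δ effects called 0 members under every alternative run. None of the 320 alternative values of the 24 named differences changed sign; 291 stayed on their side of the threshold, 16 lost a call and 13 gained one.

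Same-numbered libraries correlated in their deviations at r = -0.04, 0.12 and 0.00 in ebp1Δ and wild type (ebp1Δ numbers come from the column names), at 0.23, 0.14 and 0.05 in eaf1Δ and wild type, and at 0.24, 0.11 and -0.22 in eaf1Δ and ebp1Δ. They correlated at 0.65 in ell1Δ ED666b and 0.66 in ell1Δ Pem2, where each strain has only 2 pairs, so the numbers were not taken as pairs. The replicate block gave 9 called members in ebp1Δ, the 4 already called with mug9, mug24, mug45, meu10-antisense-1 and mug161-antisense-1 (340 genes in all), and 2 in eaf1Δ, mug9 and mug155. It gave 0 in ell1Δ ED666b, 1 in ell1Δ Pem2, mug135-antisense-1 (adjusted p = 0.0051), and 7 between eaf1Δ and ebp1Δ. ED666 libraries are shallower than the others, and how far depth limits the calls was not tested.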
